A study of Mus musculus with 16 samples.

Results

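Collagen genes code for the chains of the collagens, the triple-helical proteins of the extracellular matrix. They were taken here as every gene in the deposited table whose symbol has the form Col, a number, the letter a and a number, which gave 44 of 21924 protein-coding genes. The set holds 11 chains of fibrillar collagens, 6 of collagen IV, 3 of collagens VIII and X, 6 of collagen VI, the chain of collagen VII and 9 of fibril-associated collagens. The other members are 2 multiplexin, 4 transmembrane and 2 further chains (collagens XXVI and XXVIII).

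As background, each collagen molecule is built from 3 chains that are folded and hydroxylated in the endoplasmic reticulum, by enzymes that use oxygen, then secreted, trimmed, assembled and crosslinked. Fibrillar collagens I, III and V form the fibrils of connective tissue and are the typical products of fibroblasts, whereas collagen IV is the network of basement membranes, the sheet on which spermatogonia sit in the testis. Male germ cells are not known as a main source of fibrillar collagen.

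The study measured polyadenylated RNA in mouse germline stem (GS) cells, which are spermatogonial stem cells grown from testis, and its title names genes induced by hypoxia. There were 16 libraries in 8 groups of 2. The culture medium held GDNF and FGF2, and the cells grew over mouse embryonic fibroblasts, so each library can hold RNA of both cell types. The DBA/2 groups were wild type at 20% and at 1% oxygen. The Hif1a line, on a mixed 129 x C57BL/6 background, gave wild type and Hif1a KO groups at 20% and at 1%. Its KO cells received AxCANCre, an adenovirus carrying Cre, on the day hypoxia began. No label says whether the wild type cells were infected with a virus lacking Cre. The Top1mt line, on C57BL/6, gave a wild type and a Top1mt KO group at 1% only. The labels do not say whether the 2 libraries of a group came from separate cultures, so p-values measure the spread between these libraries, which may be technical. For each gene that spread was pooled over all 8 groups. The 2 libraries of Hif1a wild type at 1% differed most, with a chi-square per gene between their reads of 7.6, against 1.79 to 3.68 in the other groups. The SE of comparisons with that group does not widen for it. The series text gives 2 days in 1% oxygen, but "6d" stands in the names of the Hif1a line libraries at 1%, and "2d" in those from the Top1mt line. The numbers in the library names also jump between oxygen levels (13 and 14 against 17 and 18 in DBA/2), so that oxygen, time and sequencing set cannot be told apart.

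Reads per library, recovered from the deposited CPM (reads of a gene per 1000000 counted reads), ranged from 11942104 to 25659895, so that 1 read stood for 0.0390 to 0.0837 CPM. Hif1a, which codes for the oxygen-sensitive subunit of HIF-1, went against its label: it stood at 618 and 593 CPM in the libraries labelled Hif1a KO at 1% and at 251 and 251 CPM in wild type. A transcript that lacks a deleted part can still be counted, so this level is no check of the deletion itself. Top1mt, the mitochondrial topoisomerase, was lower in the libraries labelled Top1mt KO (9.99 and 10.96 CPM) than in their wild type (32.8 and 34.8 CPM). The summed level of 24 fibroblast markers that are not collagens ran from 4436 CPM in a DBA/2 library at 20% to 34360 CPM in a library labelled Hif1a KO at 1%. The sum of 16 germ cell markers ran the other way, from 4811 CPM to 1539 CPM in the same 2 libraries. Sums for Sertoli cells (10 genes) stayed between 40.96 and 65.4 CPM, for Leydig cells (7 genes) between 4.45 and 7.30 CPM and for cartilage and bone cells (10 genes) between 39.0 and 55.8 CPM. Fshr of Sertoli cells and Cyp17a1 and Lhcgr of Leydig cells were at or under 3 reads in every library. In such bulk samples, fewer cells of a type and less RNA per cell cannot be told apart.

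Neighbouring genes and start regions are shown for a few members as description. Whether they bear on the values below was not tested. Col4a1 and Col4a2, the 2 main chains of collagen IV, lie head to head on chromosome 8 (GENCODE M21, GRCm38), with starts 21 bases apart. Col4a1 runs from 11198423 to 11312826 on the minus strand, and Col4a2 from 11312805 to 11449287 on the plus strand. Col3a1 (chromosome 1, 45311538 to 45349706, plus strand) and Col5a2 (chromosome 1, 45374321 to 45503282, minus strand) lie tail to tail. Col10a1 (chromosome 10, 34389981 to 34397085, plus strand) stands alone among the members. Promoter windows of RefSeq (GRCm38.p6, from 250 bases before to 50 after the start) were matched for 35 of the 44 members, in 38 windows. The following stretches show Col3a1 and Col10a1, which moved in opposite directions with oxygen in the Hif1a line, over the 150 bases before the start (chr1:45311388-45311537 and chr10:34389831-34389980, both plus strand), and 30 bases just before the start of Col4a2 (chr8:11312765-11312794, plus strand), which lie in the first exon of Col4a1 on the other strand. Capitals mark TATAAA or CCAAT on the strand shown.
Col3a1: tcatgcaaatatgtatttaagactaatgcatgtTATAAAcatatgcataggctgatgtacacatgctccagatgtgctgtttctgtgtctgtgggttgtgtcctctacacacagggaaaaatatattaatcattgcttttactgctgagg
Col10a1: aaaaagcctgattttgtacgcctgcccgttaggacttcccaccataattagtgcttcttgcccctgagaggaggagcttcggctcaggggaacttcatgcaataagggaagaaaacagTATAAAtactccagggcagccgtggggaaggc
Col4a2: ggagctccCCAATttgttggcgctgccccc
Counting from 0 at the first transcribed base, TATAAA began at -32 in Col10a1 and at -117 in Col3a1, and CCAAT at -32 in Col4a2. TATAAA, searched on both strands, was in 13.2% of the collagen windows and in 13.6% of all 32851 windows of this length. CCAAT was in 34.2% and 37.4%. The HIF core motifs ACGTG (13.2% against 19.6%) and GCGTG (26.3% against 32.4%) were in no larger share of collagen windows than of all windows, while GGGCGG was in 60.5% against 35.7%. A match describes these letters only.

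Collagen RNA made up 0.604% of all counted reads in DBA/2 cells at 20% oxygen, 0.451% at 1%, and 4.45% in cells labelled Hif1a KO at 1%. The 44 genes summed to 6610 and 5462 CPM in DBA/2 at 20% and to 4611 and 4405 CPM at 1%. In Hif1a line wild type the sum was 7315 and 8071 CPM at 20% and 22170 and 28210 CPM at 1%. Cells labelled Hif1a KO held 9390 and 11510 CPM at 20% and 45070 and 43930 CPM at 1%. The Top1mt line at 1% held 13850 and 14180 CPM in wild type and 24880 and 25630 CPM in the libraries labelled KO. The sum was thus lower at 1% in DBA/2 cells and higher at 1% in both genotypes of the Hif1a line, with no overlap between the libraries compared.

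Collagens I, III and V together took 61.9% to 64.8% of collagen reads in DBA/2 cells and in the Hif1a line at 20% oxygen, and 72.0% to 75.3% in the Hif1a and Top1mt lines at 1%. Among genes compared per kilobase of merged exons, Col1a1 was the highest member in DBA/2 cells at 20%, with 161 ± 28.1 CPM per kilobase (SD, n = 2), ahead of Col3a1 with 89.8 ± 11.6. In cells labelled Hif1a KO at 1%, Col1a1 stood at 1502 ± 45.9 and Col3a1 at 1033 ± 5.72 CPM per kilobase of merged exons. Per kilobase of the longest transcript that order turned, with 1663 ± 50.8 for Col1a1 and 1823 ± 10.1 for Col3a1. The order of these 2 genes therefore depended on the length used. The highest group mean of 25 of the 44 members was that of cells labelled Hif1a KO at 1%. Among these were Col4a4 and Col9a1, with means of only 0.621 and 0.258 CPM there. The same count was not made over all genes, so it does not set collagen genes apart.

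The oxygen comparisons used limma on log2(CPM + 1) across the 14841 genes with at least 1 CPM in at least 2 libraries, and called a gene at a Benjamini-Hochberg adjusted p of at most 0.05. Of the 44 members 42 passed that filter. Col4a4 and Col9a1, chains of collagens IV and IX, did not and stayed between 0.168 and 0.857 CPM and between 0 and 0.321 CPM. Col4a3 passed only through DBA/2 at 20%, with a mean of 1.27 CPM there and 0.211 CPM in DBA/2 at 1%. Its lower calls against that group, which are in the counts below, were thus favoured by the filter. In DBA/2 cells at 1% oxygen 7 members were higher and 18 lower, where 31.8% of all genes tested were higher and 25.5% lower. Without DBA/2 replicate 2 at 20% the higher members numbered 4. In Hif1a line wild type 21 were higher and 11 lower (all genes, 18.4% higher and 34.6% lower). In cells labelled Hif1a KO 26 were higher and 12 lower (all genes, 25.2% higher and 54.7% lower). The median log2 fold change of the members was -0.20 in DBA/2, 0.28 in Hif1a wild type and 0.65 in the labelled KO, beside medians over all genes of 0.04, -0.09 and -0.29. In the Hif1a line more members were higher than lower at 1%, against the balance of all genes, and in DBA/2 cells more members were lower than higher. The DBA/2 and Hif1a comparisons share no library.

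Marker genes of fibroblasts moved with these counts. Of the 24 markers 6 (Fn1, Sparc, Dcn, Lum, Postn and Thbs2) also stand on the list of fibril assembly partners below, so their sum is in part one of matrix genes. Of the 24 fibroblast markers, 6 were higher and 11 lower in DBA/2 cells at 1% (median -0.13), 16 higher and 2 lower in Hif1a wild type (median 0.79), and 23 higher and 0 lower in the labelled KO (median 1.31). Of the 16 germ cell markers, 3 were higher and 11 lower in DBA/2, 2 higher and 8 lower in Hif1a wild type, and 0 higher and 16 lower in the labelled KO. The fibroblast sum rose 1.93-fold in Hif1a wild type and 2.73-fold in the labelled KO between the group means, and the collagen sum 3.27-fold and 4.26-fold. In DBA/2 the ratio of the group means, 1% over 20%, was 1.02 for the fibroblast sum and 0.747 for the collagen sum. The collagen sum divided by the fibroblast sum was 1.17 and 1.23 in DBA/2 at 20% against 0.840 and 0.912 at 1%. It was 0.944 and 0.979 against 1.60 and 1.66 in Hif1a wild type, and 0.809 and 0.869 against 1.31 and 1.32 in the labelled KO. The part of the fibroblast layer in the collagen results was not tested. Sums of 8 endothelial markers had group means from 56.6 CPM in the labelled Hif1a KO at 1% to 211.3 CPM in DBA/2 at 20%, and the former was 0.449 times that of wild type at 1%. Sums of 8 leukocyte markers had group means of 25.4 to 44.9 CPM, highest in the labelled Hif1a KO at 1%, at 1.52 times wild type. Sums of 9 parietal endoderm and epithelial markers had group means of 280.5 to 391.4 CPM. Their part in the results was not tested.

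**Figure D1:**
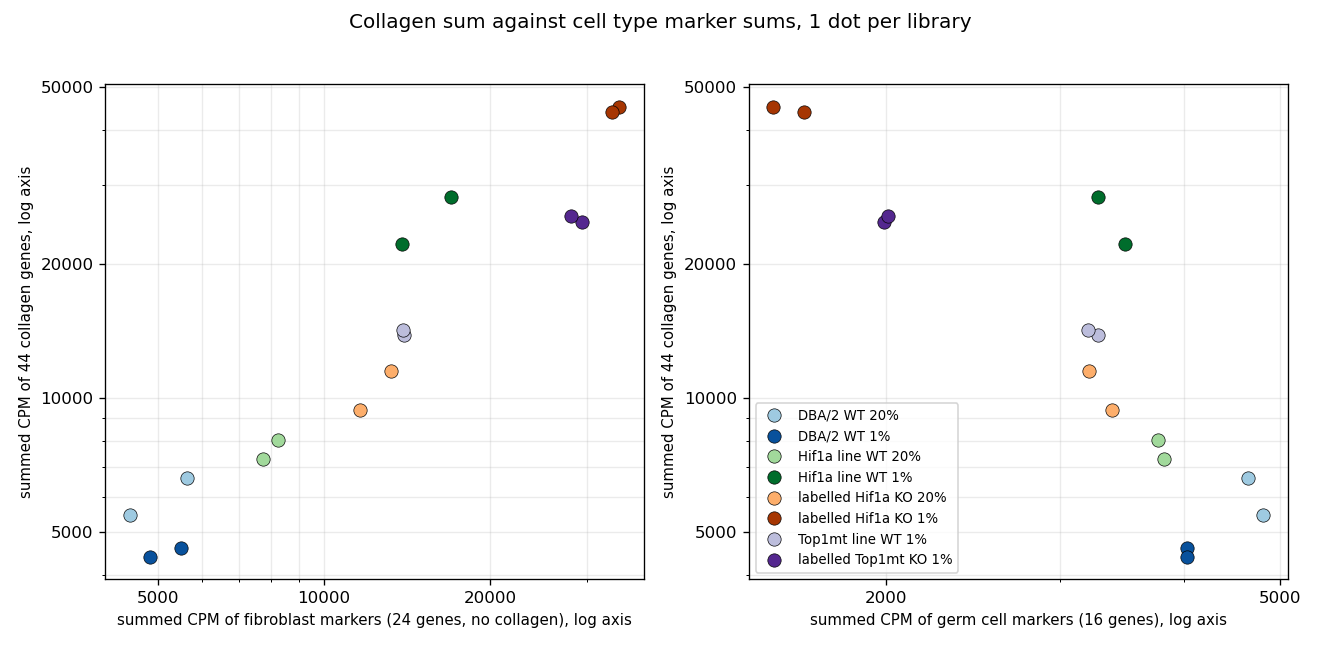
Summed CPM of the 44 collagen genes (vertical, log axis) against the summed CPM of 24 fibroblast markers (left) and 16 germ cell markers (right), 1 dot per library, coloured by group. Libraries labelled Hif1a KO at 1% sit at the top, at 45070 and 43930 CPM of collagen, with the highest fibroblast and the lowest germ cell sums; the Hif1a wild type libraries at 1% lie above the Top1mt wild type libraries at a similar fibroblast sum.

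Fibrillar collagens were mostly lower at 1% in one line and higher in the other. Of the 11 members 1 was higher and 6 were lower at 1% in DBA/2 cells, 8 were higher and 1 lower in Hif1a wild type, and 9 were higher and 1 lower in the labelled KO. The shares of all genes, in the same order, were 31.8% and 25.5%, 18.4% and 34.6%, and 25.2% and 54.7%. Col3a1, the single chain of collagen III, stood at 962 and 801 CPM at 20% and 556 and 526 CPM at 1% in DBA/2. In Hif1a wild type it stood at 980.3 and 1111 CPM at 20% and 5535 and 7033 CPM at 1%, and in the labelled KO at 1127 and 1485 CPM and 10183 and 10104 CPM. Oxygen groups did not overlap in any of the 3. The log2 fold changes were -0.70 ± 0.11 (SE, adjusted p = 2.5e-05), 2.58 ± 0.11 (adjusted p = 2.9e-13) and 2.97 ± 0.11 (adjusted p = 1.2e-14).

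Col1a1 and Col1a2 code for the chains of collagen I, which pairs 2 of the first with 1 of the second in its main form. Col1a2 fell in DBA/2 cells, from 892 and 693 CPM to 531 and 487 CPM (-0.63 ± 0.12, adjusted p = 1.7e-04). Col1a1 had 1184 and 923 CPM at 20% and 1062 and 1021 CPM at 1% (-0.01 ± 0.12), overlapping values that passed no test. Col1a1 rose in Hif1a wild type from 1363 and 1512 CPM to 4727 and 6438 CPM (1.94 ± 0.12), and Col1a2 from 1035 and 1162 CPM to 3624 and 4784 CPM (1.92 ± 0.12). Col1a1 rose in the labelled KO from 1691 and 2188 CPM to 10072 and 9646 CPM (2.36 ± 0.12), and Col1a2 from 1366 and 1752 CPM to 7634 and 7665 CPM (2.31 ± 0.12). The 2 chains thus moved by nearly the same amount in the Hif1a line and by different amounts in DBA/2.

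That difference is visible in the ratio of their CPM. Col1a1 over Col1a2 was 1.33 and 1.33 in DBA/2 at 20% and 2.00 and 2.10 at 1%. It was 1.32 and 1.30 in Hif1a wild type at 20%, 1.30 and 1.35 at 1%, 1.24 and 1.25 in the labelled KO at 20%, and 1.32 and 1.26 at 1%. In the Top1mt line, which was measured at 1% only, it was 1.93 and 1.98 in wild type and 2.00 and 1.94 in the labelled KO. The Hif1a line thus stayed apart from the other 2 lines at 1%. The ratio was not tested.

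**Figure D2:**
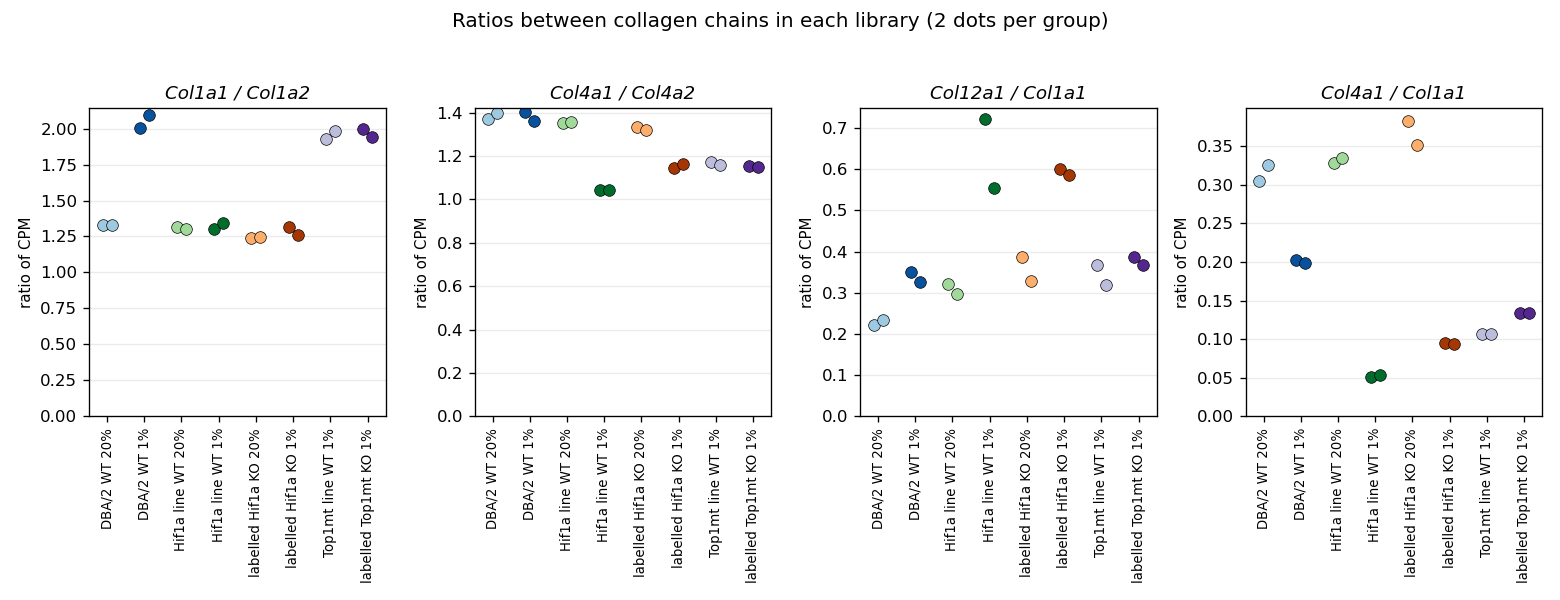
Ratio of CPM between collagen genes in each library (2 dots per group, linear axes from 0). Col1a1 over Col1a2 lies at 1.24 to 1.35 in all Hif1a line libraries and at 1.93 to 2.10 in the DBA/2 libraries at 1% and the Top1mt line; Col4a1 over Col1a1 is lowest in Hif1a wild type at 1%.

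Of collagen V, which sets the width of collagen I fibrils, Col5a1 and Col5a2 were called higher at 1% in the Hif1a line only. Col5a1 stood at 628 and 557 CPM at 20% and 516 and 517 CPM at 1% in DBA/2 and did not pass the test, and neither did Col5a2, with 333 and 270.0 CPM against 276 and 245 CPM. Col5a1 rose in Hif1a wild type from 720.0 and 781 CPM to 1309 and 1811 CPM (1.04 ± 0.10), and Col5a2 from 417 and 454 CPM to 1137 and 1439.6 CPM (1.55 ± 0.10). Col5a1 rose in the labelled KO from 899 and 1061 CPM to 2771 and 2750.1 CPM (1.50 ± 0.10), and Col5a2 from 603 and 744 CPM to 2355 and 2334 CPM (1.81 ± 0.10). Col5a3, the third chain, went its own way. It fell in DBA/2 from 129 and 102 CPM to 52.0 and 53.7 CPM (-1.10 ± 0.14). With the deposited scaling it was not called in either genotype of the Hif1a line, where it ranged from 61.4 to 119 CPM.

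The scarcer fibrillar chains were mixed. Col11a1, a chain of the fibrillar collagen XI of cartilage, fell in DBA/2 from 21.7 and 20.6 CPM to 16.8 and 14.7 CPM (-0.41 ± 0.08) and rose in Hif1a wild type from 41.7 and 44.7 CPM to 134 and 152 CPM (1.70 ± 0.08). It rose in the labelled KO from 59.7 and 72.0 CPM to 264 and 252 CPM (1.96 ± 0.08). Col24a1, the chain of collagen XXIV, rose in Hif1a wild type from 4.41 and 4.92 CPM to 19.1 and 19.8 CPM (1.85 ± 0.13) and in the labelled KO from 6.36 and 7.01 CPM to 31.7 and 30.6 CPM (2.07 ± 0.13), and stayed between 3.16 and 4.99 CPM in DBA/2. Col2a1, the main collagen of cartilage, was the 1 fibrillar gene called lower in the Hif1a line. It fell in Hif1a wild type from 32.0 and 34.0 CPM to 20.9 and 21.9 CPM (-0.60 ± 0.10), and in the labelled KO from 46.3 and 53.3 CPM to 13.98 and 14.07 CPM (-1.75 ± 0.10). In DBA/2 it was called lower too (-0.27 ± 0.10, adjusted p = 0.029), a call lost without replicate 2 at 20% (adjusted p = 0.153) or replicate 1 at 1% (adjusted p = 0.399).

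**Figure D3:**
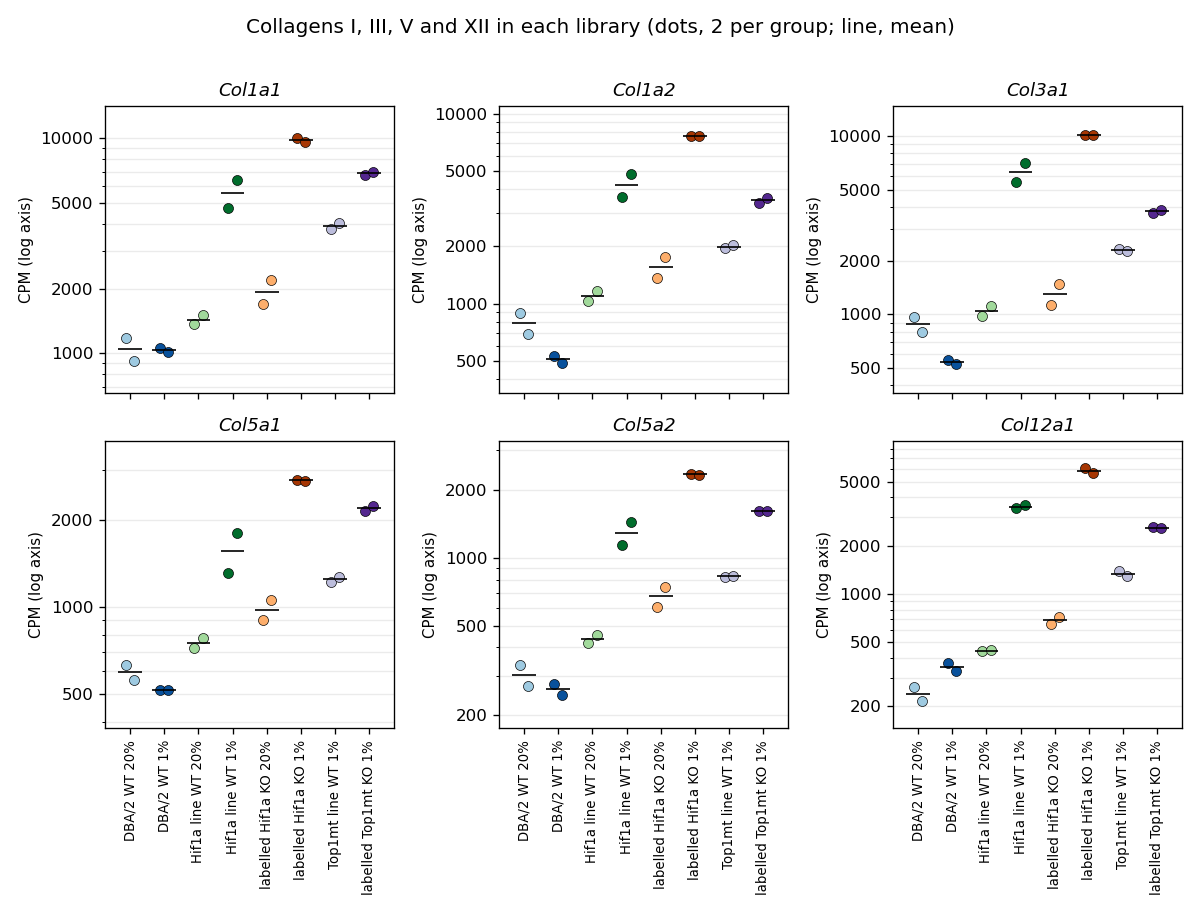
CPM (log axis) of Col1a1, Col1a2, Col3a1, Col5a1, Col5a2 and Col12a1 in each library, 2 dots per group with the mean as a line. In the Hif1a line all libraries at 1% lie above those at 20% for each of these genes; in DBA/2 cells Col3a1 and Col1a2 are lower at 1% and Col12a1 is higher.

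Fibril-associated collagens sit on the surface of fibrils. Col12a1, the chain of collagen XII, had the largest log2(CPM + 1) rise of any member in both genotypes of the Hif1a line and was also higher at 1% in DBA/2. It went from 262 and 215 CPM to 371 and 334 CPM in DBA/2 (0.56 ± 0.08, adjusted p = 3.0e-06). In Hif1a wild type it went from 439 and 448 CPM to 3415 and 3569 CPM (2.97 ± 0.08, adjusted p = 1.5e-16), and in the labelled KO from 653 and 718 CPM to 6058 and 5651 CPM (3.09 ± 0.08, adjusted p = 2.5e-17). Col12a1 over Col1a1 in CPM was 0.221 and 0.233 in DBA/2 at 20% and 0.349 and 0.327 at 1%, and rose in Hif1a wild type from 0.322 and 0.296 to 0.723 and 0.554.

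Col16a1 and Col20a1 shared that direction in all 3 settings. Col16a1, the chain of collagen XVI, went from 49.1 and 39.5 CPM to 69.6 and 68.6 CPM in DBA/2 (0.64 ± 0.13), from 54.6 and 63.7 to 148 and 219.5 CPM in Hif1a wild type (1.60 ± 0.13), and from 80.7 and 99.3 to 382 and 385 CPM in the labelled KO (2.09 ± 0.13). Col20a1, the chain of collagen XX, went from 1.91 and 1.92 CPM to 3.69 and 3.67 CPM in DBA/2 (0.68 ± 0.14). It went from 2.94 and 1.82 CPM to 7.43 and 7.79 CPM in Hif1a wild type (1.37 ± 0.14) and from 2.93 and 3.37 CPM to 21.6 and 21.2 CPM in the labelled KO (2.43 ± 0.14). Of all members 6 were called higher in each of the 3 oxygen comparisons (6.46% of all genes), and Col12a1, Col16a1 and Col20a1 were the 3 that lost none of these calls under any alternative setting or left-out library. The members called lower in all 3 were Col10a1, Col13a1 and Col2a1 (13.4% of all genes), and Col10a1 and Col13a1 lost none of these calls.

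Col14a1, the chain of collagen XIV, turned with the line: it fell in DBA/2 from 12.6 and 14.7 CPM to 6.24 and 4.58 CPM (-1.20 ± 0.13) and rose in Hif1a wild type from 11.8 and 11.6 CPM to 35.3 and 34.6 CPM (1.50 ± 0.13). In the labelled KO it rose from 8.46 and 10.4 CPM to 27.1 and 25.2 CPM (1.38 ± 0.13).

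Of 5 collagen IV genes tested, 1 was higher and 3 lower at 1% in DBA/2, 2 were higher and 2 lower in Hif1a wild type, and 4 were higher and 0 lower in the labelled KO. The shares of all genes, in the same order, were 31.8% and 25.5%, 18.4% and 34.6%, and 25.2% and 54.7%. The lower count in Hif1a wild type lay near the share of all genes. The 3 lower in DBA/2 include Col4a3, which passed the filter only through DBA/2 at 20%. It had 28 and 29 reads there and 3 and 6 reads at 1%, so its call is no sign of a fall of collagen IV. Col4a1, a chain of the main basement membrane network, fell in DBA/2 from 361 and 300.3 CPM to 216 and 203 CPM (-0.65 ± 0.12, adjusted p = 8.3e-05) and in Hif1a wild type from 448 and 506 CPM to 239 and 343 CPM (-0.73 ± 0.12, adjusted p = 2.9e-05). Without Hif1a wild type replicate 1 at 1% the latter was -0.47. Col4a2 fell in DBA/2 from 263 and 215 CPM to 154 and 149 CPM (-0.65 ± 0.12). In Hif1a wild type it had 332 and 374 CPM at 20% and 229.8 and 330.0 CPM at 1% (-0.35 ± 0.12, adjusted p = 0.017), a call lost without replicate 2 at 20% (adjusted p = 0.148), without replicate 1 at 1% (adjusted p = 0.46), and with edgeR (adjusted p = 0.105) or DESeq2 (adjusted p = 0.269). In the labelled KO both were higher at 1%: Col4a1 had 647 and 770.3 CPM at 20% and 956 and 904 CPM at 1% (0.40 ± 0.12, adjusted p = 0.0039, and 0.0766 without KO replicate 1 at 20%), and Col4a2 had 485 and 584 CPM and 836 and 776 CPM (0.60 ± 0.12). With median-of-ratios scaling these rises were 0.76 and 0.96.

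The CPM ratio of the paired genes Col4a1 and Col4a2 ran from 1.04 in both Hif1a wild type libraries at 1% to 1.40 in a DBA/2 library at 1%. In Hif1a wild type at 20% it was 1.35 and 1.355, so it was lower at 1% there. Col6a3 over Col6a1, on different chromosomes, ran from 0.799 in a Top1mt wild type library to 1.12 in a labelled Hif1a KO library at 1%. Col4a1 over Col1a1 ranged more widely, from 0.0507 and 0.0534 in Hif1a wild type at 1% to 0.383 and 0.352 in the labelled KO at 20%. The X-linked chain Col4a5 rose in Hif1a wild type from 41.7 and 44.8 CPM to 78.9 and 98.96 CPM (1.01 ± 0.10) and in the labelled KO from 65.3 and 72.7 CPM to 235 and 225 CPM (1.72 ± 0.10). Its head-to-head neighbour Col4a6 stayed low, at 0.683 to 7.95 CPM over all libraries, and rose in the labelled KO from 2.26 and 2.58 CPM to 7.95 and 7.33 CPM (1.34 ± 0.15, and 2.01 with DESeq2).

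Collagens XVIII and VII, both of basement membrane zones, fell in wild type cells of both lines. Col18a1, whose C-terminal fragment is endostatin, fell in DBA/2 from 269 and 242 CPM to 114 and 119.9 CPM (-1.12 ± 0.09) and in Hif1a wild type from 203 and 232 CPM to 113 and 139 CPM (-0.79 ± 0.09). Col7a1, the chain of the anchoring fibrils of skin, fell from 37.4 and 34.9 CPM to 19.01 and 19.82 CPM (-0.86 ± 0.12) and from 38.1 and 41.4 CPM to 18.9 and 26.7 CPM (-0.80 ± 0.12). In the labelled KO their values at 20% and 1% were 228 and 260.4 CPM against 282 and 282 CPM for Col18a1, and 57.8 and 67.1 CPM against 82.1 and 78.4 CPM for Col7a1. The differences were 0.21 ± 0.09 for Col18a1 and 0.36 ± 0.12 for Col7a1, and neither passed the test without KO replicate 1 at 20% (adjusted p = 0.303 and 0.117) or without KO replicate 1 at 1% (adjusted p = 0.0900 and 0.0602); Col18a1 also failed without KO replicate 2 at 1% (adjusted p = 0.0879). With median-of-ratios scaling they were 0.57 and 0.72. Col15a1, the other multiplexin, had 9.96 and 9.09 CPM at 20% and 8.73 and 8.71 CPM at 1% in DBA/2, and fell in the labelled KO from 14.2 and 14.6 CPM to 9.04 and 8.18 CPM (-0.68 ± 0.12, and -0.35 with median-of-ratios scaling).

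**Figure D4:**
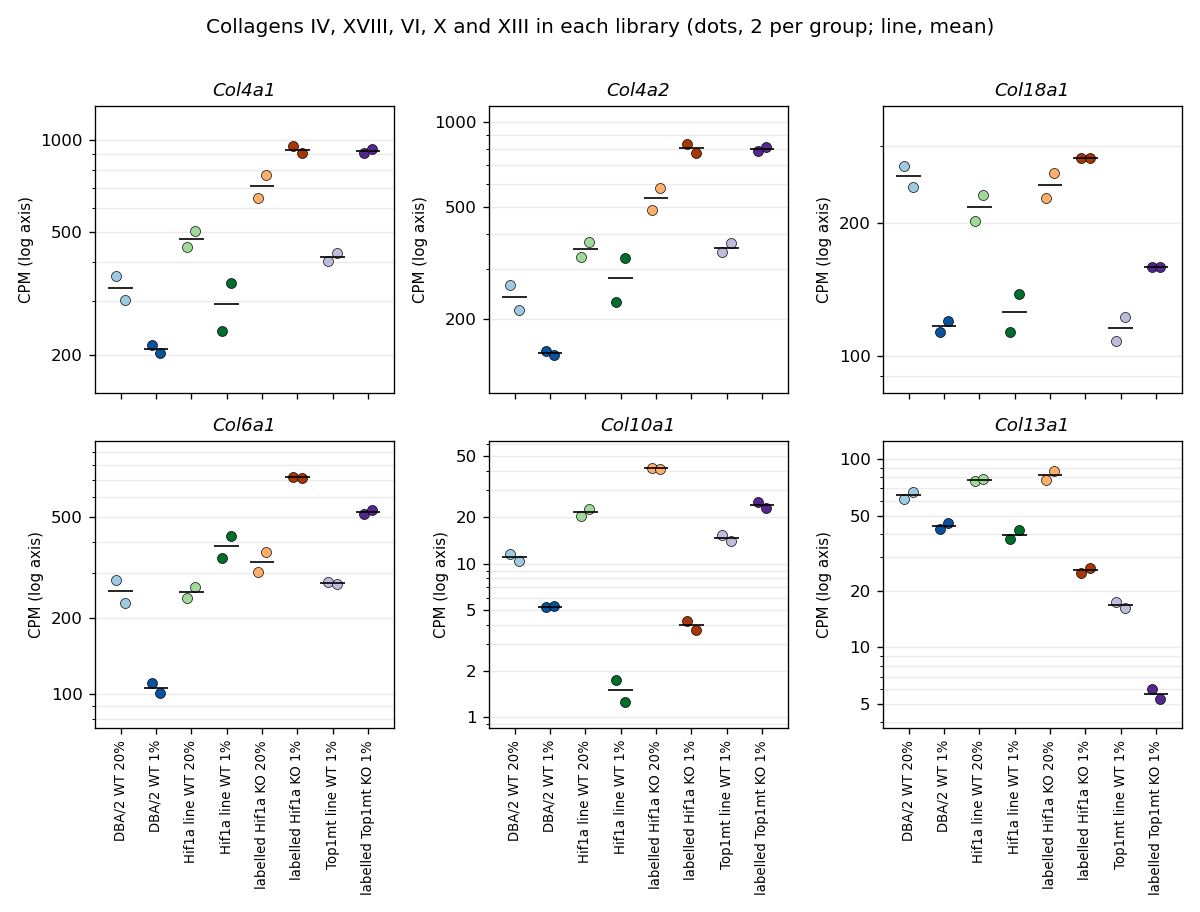
CPM (log axis) of Col4a1, Col4a2, Col18a1, Col6a1, Col10a1 and Col13a1 in each library, 2 dots per group with the mean as a line. Col10a1 is lowest in the Hif1a line at 1%, at 1.26 to 4.23 CPM, and Col13a1 is lowest in the Top1mt line.

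The network collagens VIII and X split. Col8a1, made by vessel walls and other tissues, rose in Hif1a wild type from 95.8 and 94.9 CPM to 207 and 270.4 CPM (1.30 ± 0.12) and in the labelled KO from 137 and 163 CPM to 562 and 573 CPM (1.92 ± 0.12). In DBA/2 it had 51.6 and 37.2 CPM at 20% and 64.8 and 58.0 CPM at 1% (0.47 ± 0.12, adjusted p = 0.0017, and 0.0711 without replicate 2 at 20%). Col10a1, known as the collagen of growth plate chondrocytes, had the deepest fall of any member in the Hif1a line on the log2(CPM + 1) scale. It fell from 20.5 and 22.8 CPM to 1.75 and 1.26 CPM in Hif1a wild type (-3.18 ± 0.11, adjusted p = 1.7e-14) and from 42.0 and 41.3 CPM to 4.23 and 3.70 CPM in the labelled KO (-3.10 ± 0.11, adjusted p = 8.8e-15). In DBA/2 it fell from 11.6 and 10.3 CPM to 5.24 and 5.26 CPM (-0.93 ± 0.11). The sum of 10 cartilage and bone cell markers had group means of 43.2 CPM at 20% and 41.3 CPM at 1% in Hif1a wild type, 42.4 and 45.7 CPM in the labelled KO, and 53.9 and 45.8 CPM in DBA/2. Single markers moved both ways under these sums. Of 9 tested, 1 was higher and 2 lower in Hif1a wild type, 4 and 3 in the labelled KO, and 3 and 2 in DBA/2. The shares of all genes were 18.4% and 34.6%, 25.2% and 54.7%, and 31.8% and 25.5%. The part of these markers in the falls was not tested.

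Collagen VI forms beaded filaments around cells, from Col6a1, Col6a2 and one of its longer chains. All 3 main genes fell in DBA/2 cells at 1%: Col6a1 from 283 and 228 CPM to 110.5 and 101 CPM (-1.26 ± 0.09), Col6a2 from 232 and 186 CPM to 96.996 and 96.6 CPM (-1.10 ± 0.10), and Col6a3 from 317 and 254 CPM to 95.7 and 89.1 CPM (-1.61 ± 0.10, adjusted p = 1.2e-10). Col6a1 rose in Hif1a wild type from 240.1 and 264 CPM to 344 and 422 CPM (0.60 ± 0.09). Col6a2 (0.40 ± 0.10) and Col6a3 (0.41 ± 0.10) were called higher there, but not without replicate 2 at 1% (adjusted p = 0.058 and 0.0686). Col6a1 rose in the labelled KO from 303 and 362 CPM to 722 and 712 CPM (1.11 ± 0.09), Col6a2 from 209 and 239 CPM to 440.1 and 425 CPM (0.95 ± 0.10) and Col6a3 from 305 and 352 CPM to 809 and 756 CPM (1.25 ± 0.10).

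The further chains of collagen VI, which sit side by side on chromosome 9, are named here after their values were seen. Col6a6 stood at 27.4 to 52.0 CPM in DBA/2 and the Hif1a line and at 1.15 to 3.32 CPM in the Top1mt line. Col6a4 stayed between 2.88 and 13.995 CPM and Col6a5 between 1.21 and 3.65 CPM over all libraries. In Hif1a wild type at 1% Col6a6 was 0.43 ± 0.10 higher, and in the labelled KO it was at -0.48 ± 0.10, a call lost with median-of-ratios scaling (adjusted p = 0.291).

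No transmembrane collagen was called higher in any of the 3 oxygen comparisons. Of the 4 genes 1 was lower in DBA/2, 3 in Hif1a wild type and 4 in the labelled KO, beside 25.5%, 34.6% and 54.7% of all genes. The DBA/2 share lay near that of all genes. In the labelled KO the 16 germ cell markers were all lower too. Col13a1, a collagen of cell adhesion sites and neuromuscular junctions, fell in all 3: from 61.3 and 66.9 CPM to 42.5 and 45.9 CPM in DBA/2 (-0.53 ± 0.08), from 76.6 and 78.6 CPM to 37.7 and 41.7 CPM in Hif1a wild type (-0.95 ± 0.08), and from 77.1 and 86.6 CPM to 24.8 and 26.5 CPM in the labelled KO (-1.64 ± 0.08). Col25a1, known from motor neuron development, fell in the labelled KO from 11.97 and 11.28 CPM to 5.64 and 4.79 CPM (-1.02 ± 0.11), while Hif1a wild type had 15.3 and 16.2 CPM at 20% and 13.8 and 14.6 CPM at 1%. In the labelled KO 3 further members, chosen after their values were seen, also fell: Col17a1, a collagen of hemidesmosomes (-0.98 ± 0.11), and the fibril-associated Col22a1 (-0.98 ± 0.08, and -0.64 with median-of-ratios scaling) and Col19a1 (-0.91 ± 0.17). The sum of germ cell markers went from 3383 and 3211 CPM to 1539 and 1651 CPM in the same libraries, and its part in these falls was not tested. Col28a1, a collagen of peripheral nerve, rose in Hif1a wild type from 6.92 and 7.79 CPM to 13.6 and 14.6 CPM (0.85 ± 0.14) and in the labelled KO from 11.6 and 13.3 CPM to 25.6 and 22.8 CPM (0.91 ± 0.14).

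**Figure D5:**
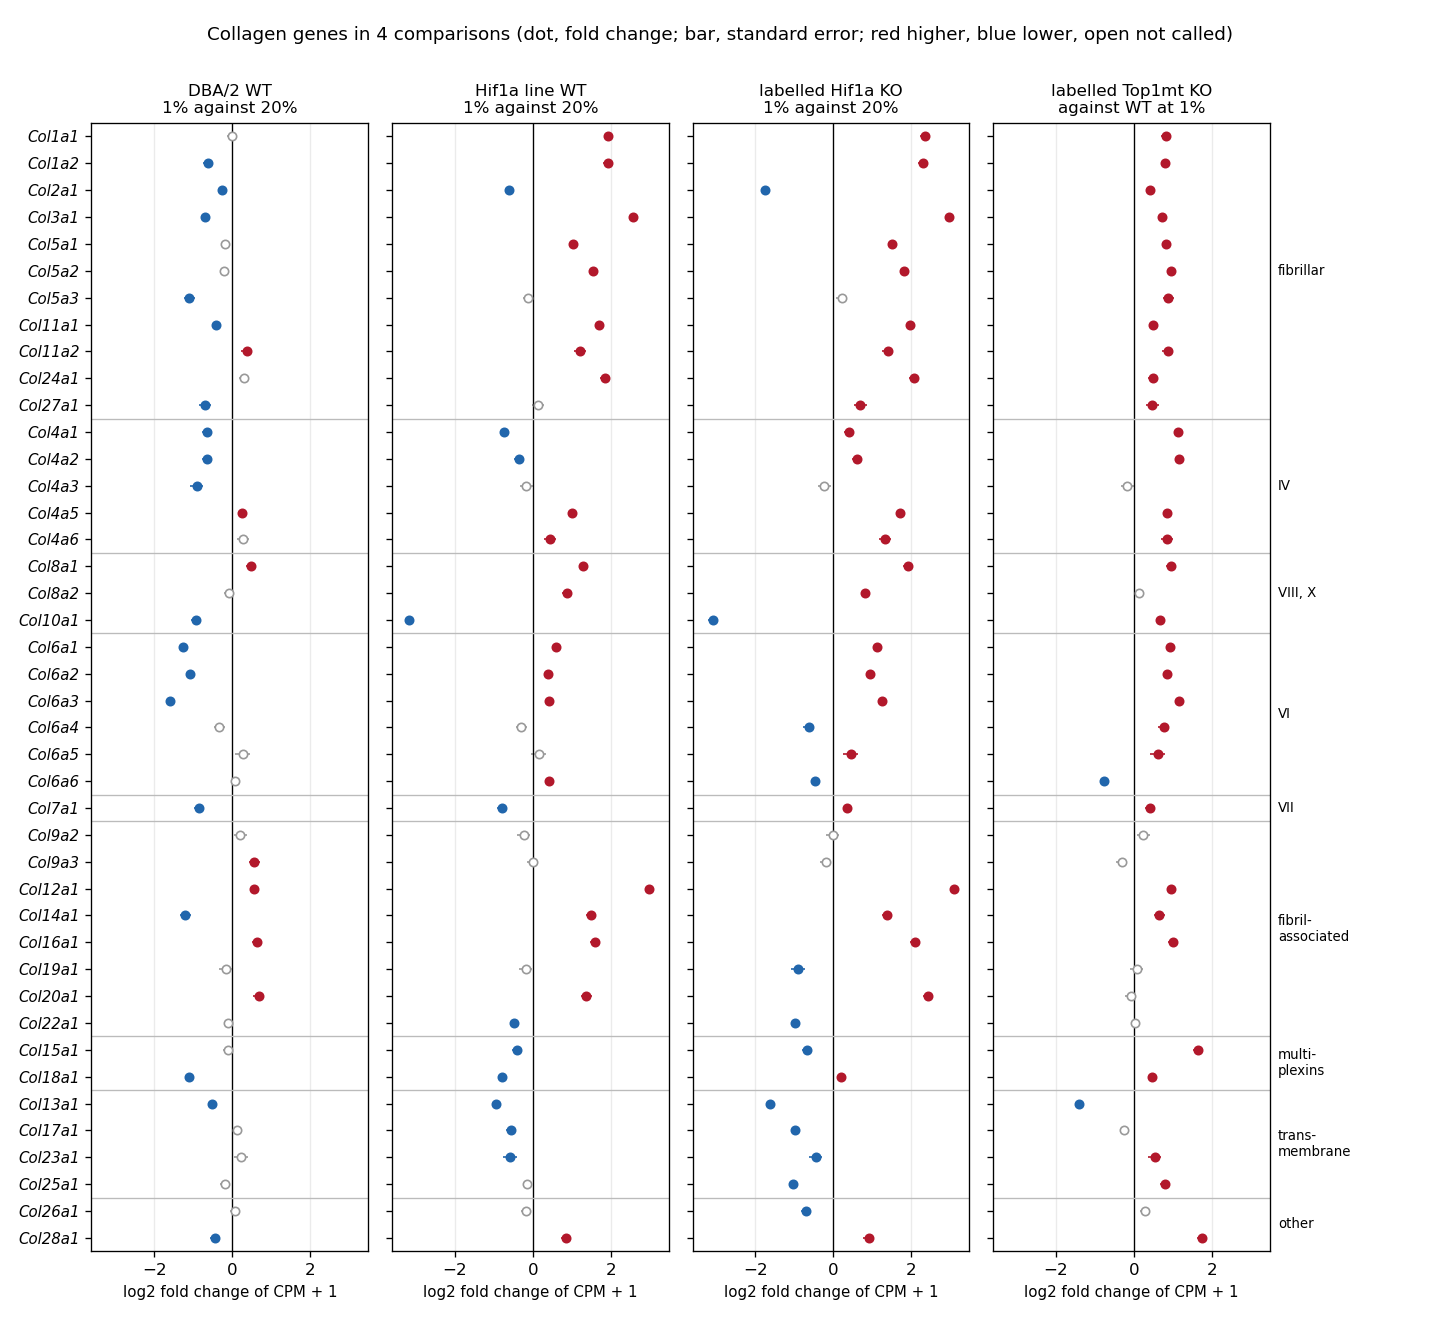
Log2 fold change of CPM + 1 (horizontal) with its standard error for the 42 collagen genes tested, by structural group, in the 3 oxygen comparisons and in the labelled Top1mt KO against wild type. Red dots are called higher, blue dots lower and open dots neither; members higher and lower number 7 and 18 in DBA/2, 21 and 11 in Hif1a wild type, 26 and 12 in the labelled Hif1a KO and 31 and 2 in the Top1mt comparison.

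The difference between the oxygen responses of Hif1a wild type and DBA/2 cells was tested directly. The lines differ in strain background, and "6d" stands in the Hif1a line names at 1%, with no days in the DBA/2 names. Line, strain, time and sequencing set therefore cannot be told apart in this difference. Of the 42 members 23 differed upwards in the Hif1a line and 6 downwards, where 15.1% and 30.9% of all genes did, and the members' median difference was 0.72 (all genes, -0.13). The difference was 3.28 ± 0.16 for Col3a1, 2.55 ± 0.17 for Col1a2, 2.41 ± 0.11 for Col12a1, 2.02 ± 0.14 for Col6a3 and -2.25 ± 0.16 for Col10a1. Of the fibrillar genes 10 of 11 differed upwards. The difference did not pass the test for Col4a1 (-0.08 ± 0.16), Col4a2 (0.29 ± 0.17) or Col7a1 (0.07 ± 0.17), which does not show that they act alike. Fibroblast markers differed upwards for 16 of 24 genes and downwards for 3 (median 0.99), and the part of these markers in the difference was not tested.

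At 20% oxygen itself, 20 members were higher and 6 lower in Hif1a wild type than in DBA/2 wild type (all genes, 26.4% higher and 22.6% lower). Col4a5 (1.36 ± 0.10), Col28a1 (1.30 ± 0.14), Col19a1 (1.17 ± 0.17), Col8a1 (1.10 ± 0.12), Col11a1 (1.00 ± 0.08), Col10a1 (0.92 ± 0.11) and Col12a1 (0.90 ± 0.08) led the higher members. The 6 lower members include Col4a3, which passed the filter only through DBA/2 at 20%. Without DBA/2 replicate 1 at 20% the lower members numbered 3. Of the fibroblast markers 17 were higher and 1 lower. No label says whether both lines were sequenced together, so line and sequencing set cannot be told apart.

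Cells labelled Hif1a KO held more collagen RNA than wild type of the same line at both oxygen levels, with the fibroblast markers higher as well. At 1% 26 members were higher and 10 lower (all genes, 28.3% and 49.1%), with a median of 0.72 (all genes, -0.21), and 24 of 24 fibroblast markers were higher and 16 of 16 germ cell markers lower. Col7a1 was higher by 1.79 ± 0.12 (adjusted p = 6.8e-11), Col4a1 by 1.69 ± 0.12 (adjusted p = 9.2e-11), Col4a2 by 1.55 ± 0.12, Col20a1 by 1.38 ± 0.14, Col4a5 by 1.37 ± 0.10, Col8a1 by 1.26 ± 0.12 and Col18a1 by 1.16 ± 0.09, against 0.84 ± 0.12 for Col1a1 and 0.70 ± 0.11 for Col3a1. In CPM, Col4a1 had 239 and 343 in wild type and 956 and 904 in the labelled KO, while Col7a1 had 18.9 and 26.7 and then 82.1 and 78.4. Col25a1 (-1.29 ± 0.11) and Col19a1 (11.4 and 10.8 CPM against 3.72 and 5.03 CPM, -1.18 ± 0.17) fell most.

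At 20% oxygen 19 members were higher and 2 lower in the labelled KO (all genes, 12.9% and 9.55%), with a median of 0.28 (all genes, -0.03). Col10a1 was higher by 0.91 ± 0.11, with 42.0 and 41.3 CPM against 20.5 and 22.8 CPM. Col12a1 (0.62 ± 0.08), Col5a2 (0.62 ± 0.10), Col4a1 (0.57 ± 0.12) and Col11a1 (0.59 ± 0.08) were also higher, and Col22a1 lower (-0.38 ± 0.08). Of the 21 calls 9 were lost without 1 of the libraries, among them Col1a1 (0.42 ± 0.12, adjusted p = 0.0196, 0.285 without KO replicate 2 and 0.172 without wild type replicate 1) and Col1a2 (0.50 ± 0.12, adjusted p = 0.0058, 0.127 and 0.088 without the same libraries). Without those libraries 12 and 13 members were called. Fibroblast markers were higher for 21 of 24 genes and lower for 1.

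The oxygen response of the labelled KO minus that of wild type, an interaction, was higher for 16 members and lower for 8 (all genes, 19% and 39%). With median-of-ratios scaling, which moves the median of all genes from -0.17 to 0.07, it was higher for 22 and lower for 4. Without wild type replicate 1 at 20% it was lower for 5. The largest positive values were those of Col7a1 (1.16 ± 0.17, adjusted p = 1.2e-05), Col4a1 (1.13 ± 0.16, adjusted p = 1.1e-05), Col20a1 (1.06 ± 0.20), Col18a1 (1.00 ± 0.12) and Col4a2 (0.95 ± 0.17). Of these, Col7a1, Col4a1, Col18a1 and Col4a2 were called lower with low oxygen in wild type, Col4a2 with the limits given above, and were not called lower in the labelled KO. Col20a1, Col6a3 (0.84 ± 0.14) and Col4a5 (0.71 ± 0.14) rose by more, and Col2a1 fell by more (-1.15 ± 0.15). For Col1a2 and Col12a1 the interaction did not pass the test. The calls for Col1a1 (0.42 ± 0.18, adjusted p = 0.0497) and Col3a1 (0.39 ± 0.16, adjusted p = 0.0388) were lost without any 1 of wild type replicate 2 at 20%, KO replicate 1 at 20%, wild type replicate 1 at 1% or either KO replicate at 1%, with adjusted p from 0.072 to 0.313 for Col1a1 and from 0.0732 to 0.279 for Col3a1. Fibroblast markers had 19 higher and 0 lower, and germ cell markers 0 higher and 15 lower. This comparison and those of the labelled KO above share libraries and are not independent.

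In the Top1mt line at 1% oxygen most collagen genes were higher in the cells labelled KO. Of the 42 members 31 were higher and 2 lower (all genes, 25.2% and 33.2%), with a median of 0.70 (all genes, -0.04). All 11 fibrillar genes were higher. Col1a1 went from 3774 and 4024 CPM in wild type to 6779.9 and 6976 CPM (0.82 ± 0.12), Col3a1 from 2312 and 2261 CPM to 3703 and 3857 CPM (0.72 ± 0.11) and Col12a1 from 1387 and 1286 CPM to 2615 and 2565 CPM (0.96 ± 0.08). Collagens IV and VI rose alongside: Col4a1 from 404 and 430.0 CPM to 909 and 936 CPM (1.14 ± 0.12), Col4a2 from 345 and 371 CPM to 788 and 815 CPM (1.16 ± 0.12), and Col6a3 from 234 and 218 CPM to 514 and 503 CPM (1.17 ± 0.10). Of the fibroblast markers 24 of 24 were higher, with a sum of 13960 and 13930 CPM in wild type and 29450 and 28030 CPM in the labelled KO. The collagen sum divided by the fibroblast sum was 0.992 and 1.02 in wild type and 0.845 and 0.914 in the labelled KO, lower in both KO libraries.

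The members with the largest rises and the 2 that fell were the following. Col15a1, a basement membrane collagen of muscle and vessels, went from 10.6 and 8.24 CPM to 32.5 and 30.5 CPM (1.65 ± 0.12, adjusted p = 1.0e-09), and Col28a1 from 4.01 and 3.78 CPM to 15.7 and 15.3 CPM (1.75 ± 0.14, adjusted p = 2.4e-09). Col13a1 fell from 17.4 and 16.2 CPM to 5.98 and 5.34 CPM (-1.42 ± 0.08, adjusted p = 3.3e-11) and Col6a6 from 3.32 and 2.43 CPM to 1.15 and 1.38 CPM (-0.77 ± 0.10). All 16 germ cell markers were lower, with sums of 3273 and 3198 CPM in wild type and 1992 and 2011 CPM in the labelled KO, and their part in these falls was not tested.

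The 4 Top1mt line libraries also stood apart as a line for a few members, named after their values were seen. Col13a1, Col19a1, Col6a6 and Col9a2 were lower in all 4 than in any of the other 12 libraries, where 2.69% of genes tested showed that pattern. Col19a1 had 0.207 to 0.636 CPM in these libraries and 3.72 to 13.7 CPM in the others. In these 4 it lay near the floor of 3 reads, with 8 and 4 reads in wild type and 10 and 4 in the labelled KO. Col17a1 was higher in all 4 (24.5 to 29.7 CPM against 5.96 to 22.0 CPM), where 5.08% of genes were. The Top1mt line is the only one on C57BL/6, so line, strain and sequencing set cannot be told apart here.

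Most genes that fold and modify collagen were higher at 1% oxygen in both lines. Of 20 genes of collagen folding and modification in the endoplasmic reticulum, 12 were higher and 3 lower in DBA/2, and 14 higher and 0 lower in Hif1a wild type. In the labelled Hif1a KO 18 were higher and 1 lower, and in the labelled Top1mt KO against its wild type 17 and 1. The shares of all genes higher and lower, in the same order, were 31.8% and 25.5%, 18.4% and 34.6%, 25.2% and 54.7%, and 25.2% and 33.2%. P4ha1, the catalytic chain of a prolyl 4-hydroxylase, rose in DBA/2 from 59.6 and 50.1 CPM to 265 and 244 CPM (2.20 ± 0.07). Plod2, a lysyl hydroxylase of the chain ends, rose in Hif1a wild type from 115 and 112 CPM to 363 and 369.6 CPM (1.69 ± 0.04) and P4ha2 from 57.9 and 63.0 CPM to 245 and 297 CPM (2.14 ± 0.07). Of 6 procollagen export genes 4 were higher and 1 lower in DBA/2, and 2 higher and 1 lower in Hif1a wild type. Of the 5 crosslinking lysyl oxidases 2 were higher and 2 lower in DBA/2, near the shares of all genes, and 5 higher in Hif1a wild type. Lox, the founding member, rose from 203 and 152 CPM to 794 and 674 CPM (2.05 ± 0.10) and from 456 and 483 CPM to 2015 and 2309 CPM (2.20 ± 0.10).

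The lines were alike in sign for the enzymes just named and opposite for a fibril partner and a collagenase. The response of Hif1a wild type cells less that of DBA/2 was -0.12 ± 0.10 for P4ha1 (adjusted p = 0.363) and 0.15 ± 0.14 for Lox (adjusted p = 0.411), and small but called for Plod2 (0.18 ± 0.06, adjusted p = 0.0263) and P4ha2 (0.32 ± 0.10, adjusted p = 0.0124). P4ha3, a further prolyl 4-hydroxylase chain chosen after its values were seen, differed by 1.98 ± 0.20, being lower at 1% in DBA/2 (-0.68 ± 0.14) and higher in Hif1a wild type (1.29 ± 0.14). The difference was 4.70 ± 0.14 for Lum, which codes for lumican, a proteoglycan on collagen fibrils. Lum fell in DBA/2 from 46.8 and 39.5 CPM to 7.23 and 5.71 CPM and rose in Hif1a wild type from 32.3 and 35.1 CPM to 153 and 150.3 CPM. Mmp13, an interstitial collagenase, fell from 52.1 and 52.5 CPM to 10.98 and 12.06 CPM in DBA/2 and rose from 79.6 and 83.7 CPM to 177 and 169.9 CPM (difference 3.17 ± 0.18).

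The remaining lists are given by their counts, beside 31.8% higher and 25.5% lower of all genes in DBA/2 and 18.4% and 34.6% in Hif1a wild type. Differences between the lines were tested gene by gene, and no list was tested as a whole. Upwards and downwards in the Hif1a line differed 7 and 0 of 9 fibril assembly partners and 5 and 1 of 7 breakdown and uptake genes. For trimming it was 4 and 1 of 8, for receptors 4 and 2 of 7, and for TGF-beta genes 4 and 2 of 11. Of all genes 15.1% differed upwards and 30.9% downwards. Of 9 fibril assembly partners, 6 of which are also on the fibroblast list, 0 were higher and 6 lower in DBA/2, and 7 higher and 1 lower in Hif1a wild type, where Postn (periostin) rose from 59.7 and 60.9 CPM to 216 and 226 CPM (1.86 ± 0.08). Of 7 genes of collagen breakdown and uptake 0 were higher and 4 lower in DBA/2 and 4 higher and 1 lower in Hif1a wild type. Of 8 procollagen trimming genes 0 were higher and 2 lower in DBA/2 and 3 higher and 2 lower in Hif1a wild type, where the procollagen N-proteinase Adamts2 rose from 23.7 and 26.0 CPM to 126 and 149 CPM (2.42 ± 0.09). Of 7 collagen receptors tested, 2 were higher and 3 lower in DBA/2 and 4 higher and 1 lower in Hif1a wild type, with Itga11, a fibroblast integrin chain that binds collagen I, at 12.3 and 11.5 CPM and then 83.4 and 98.8 CPM (2.83 ± 0.09). Of 11 TGF-beta ligands and receptors and their relays, 3 were higher and 4 lower in DBA/2 and 4 higher and 3 lower in Hif1a wild type, with Smad3 at -1.23 ± 0.06 in DBA/2 and Tgfbr2 at 0.87 ± 0.10 in Hif1a wild type.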

How the data were processed

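Polyadenylated RNA of 16 libraries was measured with a stranded kit, per the labels' protocols. The authors deposited 1 table of CPM per gene, in which each library sums to 1000000. Per the submitters' processing notes, cutadapt 1.16, STAR 2.6.0c, HTSeq 0.11.2 and DESeq2 1.22.2 were used with mm10. All values (100%) were whole multiples of 1 read within 0.01, so reads were recovered for alternatives. The number of columns not matched to a sample was 0.

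Log2(CPM + 1) was fitted with limma 3.58.1 (R 4.3.3) on all 8 groups, for 14841 genes with at least 1 CPM in at least 2 libraries, with Benjamini-Hochberg adjustment over all of them and a threshold of 0.05. Fold changes are on that scale, which understates those of low genes, and carry their SE. The fit was tested on simulated data. The alternatives were edgeR 4.0.16 and DESeq2 1.42.0 on recovered reads, median-of-ratios scaling, a pseudocount of 0.1, no filter or 5 CPM, only the groups compared, a replicate block and each library left out. A count of 3 reads was taken as the floor. Same-numbered libraries deviated together too little to count as pairs (correlations of -0.064 to 0.274). Gene positions came from GENCODE M21 and promoter windows from RefSeq.

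The collagen genes and the gene lists were chosen with earlier results of these data known. Values per library are given for members with a mean of at least 100 CPM in a group, or called with a log2 fold change of at least 1 and a mean of at least 5 CPM. From each list, the 2 genes with the smallest adjusted p could be named.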

Additional observations from a re-analysis of the deposited data

Results flagged for a closer look

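Each result here is a difference between oxygen responses, tested as an interaction term with limma, and listed for members that differed by at least 1 on the log2 scale. Between Hif1a wild type and DBA/2 cells 23 collagen genes had a positive difference and 6 a negative one (all genes, 15.1% and 30.9%). Line, strain, time and sequencing set cannot be told apart in this difference. Among fibril-forming chains the difference was 3.28 for Col3a1, 2.55 for Col1a2, 1.95 for Col1a1, 1.76 for Col5a2, 1.23 for Col5a1, 2.11 for Col11a1 and 1.56 for Col24a1. It was 2.41 for Col12a1 and 2.70 for Col14a1 of the fibril-associated group. In collagen VI it was 2.02 for Col6a3, 1.85 for Col6a1 and 1.50 for Col6a2. Col28a1 differed by 1.29 and Col10a1 by -2.25.

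Between the labelled Hif1a KO and Hif1a wild type 16 members had a positive difference and 8 a negative one (all genes, 19% and 39%). With median-of-ratios scaling these counts were 22 and 4. The difference was 1.16 for Col7a1, 1.13 for Col4a1, 1.06 for Col20a1 and -1.15 for Col2a1. Groups of 2 libraries are too small for a test of single outlying libraries.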

How the results depend on the processing

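No collagen gene changed direction past the threshold under any alternative that was run. Of 5599 values of single genes under alternatives, 5270 kept their side of the threshold, 231 fell below it and 98 rose above it. Total counts of called members stayed within 1.5 times of those reported, with 1 exception. For the labelled Hif1a KO against wild type at 20% oxygen the count was 21 and ranged from 12 to 22 when single libraries were left out. It was 12 without KO replicate 2 and 13 without wild type replicate 1, where fewer libraries were fitted. By direction, 8 members lower in the labelled KO interaction became 4 with median-of-ratios scaling or DESeq2, and 5 with edgeR or without wild type replicate 1 at 20%. With DESeq2, 10 lower in the labelled KO against wild type at 1% became 6, and 6 lower in the difference between lines became 3. With a replicate block within each line 28 members were called in DBA/2 cells with oxygen, 32 in Hif1a wild type, 24 in the labelled Hif1a KO against wild type at 20% and 34 in the Top1mt line. It was 38 in the labelled KO with oxygen, 36 against wild type at 1%, 27 in the interaction and 30 in the difference between lines. For Hif1a wild type against DBA/2 at 20% it was 24 (15 higher, 9 lower), with 5 calls lost and 3 gained. Libraries of a number were not shown to be pairs. Median-of-ratios scaling moved the median log2 fold change of all genes from -0.29 to 0.02 for the labelled KO with oxygen, from -0.21 to 0.03 for the labelled KO against wild type at 1% and from -0.13 to -0.01 for the difference between lines. Members called in the labelled KO interaction were higher in 66.7% with the deposited scaling, in 84.6% with median-of-ratios scaling and in 81.5% with edgeR. Depth limits Col4a4, Col9a1, Col4a3 and, in the Top1mt line, Col19a1, which lay within a few reads of the floor in some libraries.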
